A study of Mus musculus with 6 samples.

Results

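Formative and primed pluripotency genes were followed in RW4 cells, a mouse embryonic stem cell line, on single-colour Affymetrix arrays. The set was fixed by name and holds 10 genes: Fgf5, Otx2, Lef1, Pou3f1, Zic2, Sox3, Tcf15, Sall2, Pim2 and Cdh2. Each was read from the brightest probe set annotated to its symbol alone, and all 10 were found among the 19938 genes measured, with 1 probe set each. The 6 arrays formed 3 groups of 2. Untreated cells received no agent, and their labels give WT as the induction system. The 4OHT cells received 1 µM 4-hydroxytamoxifen, a ligand of the estrogen receptor, with ERT2 as the labelled induction system. The Shld1 cells received 1 µM Shld1, a ligand that stabilises a destabilised FKBP domain, with FKBP as the labelled system. All groups grew on gelatin with leukemia inhibitory factor (LIF) at 1000 U/mL and 2 sera at 10% each. Whether the treated cells carried a fusion protein, how long they were treated, and whether duplicates came from separate cultures are not given in the sources used here. An agent and its labelled induction system cannot be told apart, and p-values cover only how far these arrays lay apart, which may be technical.

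Mouse embryonic stem cells held with LIF and serum are a mixture around the naive state, which resembles the epiblast before implantation. On leaving that state, cells pass through a formative stage and then become primed, like the epiblast after implantation. Otx2 and Pou3f1 are transcription factors that help to install the formative programme, Fgf5 is the classical secreted marker of it, and Lef1 is a DNA-binding partner of β-catenin in Wnt signalling. Zic2, Sox3, Tcf15 and Sall2 are further transcription factors, Pim2 is a serine/threonine kinase, and Cdh2 is N-cadherin, a cell adhesion protein of later epiblast and its derivatives. In bulk RNA, fewer cells in such a state and less RNA per cell cannot be told apart.

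Promoter sequence was at hand in RefSeq (GRCm38.p6) for 5 of the 10 genes, Fgf5, Otx2, Lef1, Sall2 and Pim2, with 12 annotated start sites between them. The 250 bases before each start were searched on both strands for an OTX-type homeobox motif (GGATTA), a TCF/LEF motif (CTTTGA), the octamer (ATGCAAAT) and a SOX-type motif (ACAAAG). The reverse complement of the TCF/LEF motif shares its last 5 letters with the SOX-type motif, so the 2 cannot start at the same base. Windows are shown for Lef1 and Otx2, the genes with the largest differences below, and for Pim2, the window with the most octamers. Capitals mark the motif matches.
Lef1, start 4 of 4, chr3:131156044-131156293, plus strand: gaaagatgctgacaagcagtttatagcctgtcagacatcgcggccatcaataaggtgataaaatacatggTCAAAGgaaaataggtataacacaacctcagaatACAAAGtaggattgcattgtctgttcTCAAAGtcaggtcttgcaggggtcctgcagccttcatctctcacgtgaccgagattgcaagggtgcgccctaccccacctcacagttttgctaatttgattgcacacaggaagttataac
Otx2, start 3 of 4, chr14:48665110-48665359, minus strand: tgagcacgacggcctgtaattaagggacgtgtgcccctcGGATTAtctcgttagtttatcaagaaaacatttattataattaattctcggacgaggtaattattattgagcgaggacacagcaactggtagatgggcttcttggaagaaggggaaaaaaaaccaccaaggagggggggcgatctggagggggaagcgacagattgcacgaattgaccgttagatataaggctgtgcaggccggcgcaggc
Pim2, chrX:7878056-7878305, plus strand: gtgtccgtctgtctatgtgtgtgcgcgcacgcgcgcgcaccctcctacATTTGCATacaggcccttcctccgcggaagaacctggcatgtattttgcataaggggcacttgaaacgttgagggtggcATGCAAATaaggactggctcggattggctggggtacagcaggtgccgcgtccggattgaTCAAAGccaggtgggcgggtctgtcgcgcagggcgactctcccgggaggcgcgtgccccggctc
The Lef1 window held 2 TCF/LEF matches in reverse, at -180 to -175 and -120 to -115 from the start, and a SOX-type match at -146 to -141. The Otx2 window held 1 OTX-type match at -211 to -206. The Pim2 window held an octamer in each direction, at -202 to -195 and -123 to -116, and a TCF/LEF match at -64 to -59. The Fgf5 window held 1 SOX-type match, at -27 to -22. The other 3 starts of Lef1, the other 3 of Otx2 and the 2 of Sall2 had no match in these windows. Over 32851 promoter windows of the same length, 13.8% held the TCF/LEF motif, 16.5% the SOX-type motif, 6.25% the OTX-type motif and 1.6% the octamer. The matches describe letters only, and the arrays do not tell which start was in use.

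The pluripotency factors were high on all 6 arrays. Pou5f1, the central pluripotency factor, lay between 10.23 and 10.45 on the log2 signal scale, and Nanog between 10.64 and 10.99. Zfp42, a naive marker, lay between 8.61 and 8.89. The background was taken as 3.73, the 95th percentile of the mean log2 signals of 1015 olfactory receptor genes. Array medians ran from 4.20 to 4.32. The SD over all probe sets was 2.29 on 4OHT replicate 1 and 2.24 on Shld1 replicate 2, against 2.33 to 2.35 on the other 4, so those 2 arrays had a narrower range of signals.

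In untreated cells, 8 of the 10 genes were above background on both arrays, namely all but Sall2 and Cdh2. Otx2 was at 7.64 ± 0.04, Tcf15 at 7.38 ± 0.04 and Lef1 at 6.69 ± 0.10 log2 signal (mean ± SD, n = 2 in every group). Zic2 was at 5.77 ± 0.26, Sox3 at 5.54 ± 0.02, Pim2 at 4.53 ± 0.06, Pou3f1 at 4.44 ± 0.06 and Fgf5 at 4.25 ± 0.03. Sall2 was at 3.62 and 3.93, on either side of background, and Cdh2 was below it at 3.34 and 3.44. Signals of different probe sets are not on 1 scale, so these levels set no order among the genes.

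**Figure D1:**
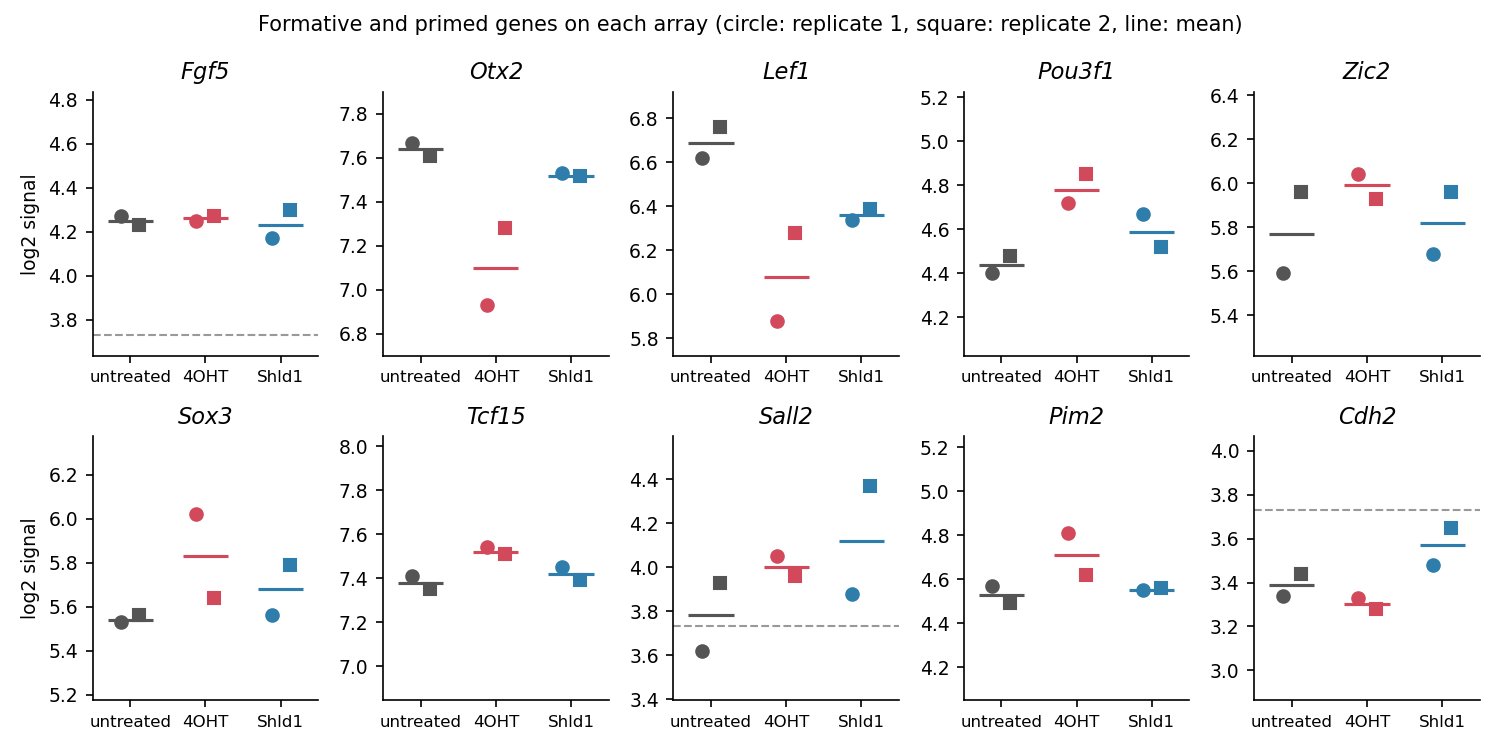
Log2 signal of each of the 10 genes on each array, by group (grey untreated, red 4OHT, blue Shld1; circles replicate 1, squares replicate 2, lines group means; every panel spans the same height, and the dashed line is the background of 3.73). Otx2 and Lef1 were lowest on 4OHT replicate 1, at 6.93 and 5.88, while Fgf5 stayed between 4.17 and 4.30 on all 6 arrays.

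With 4OHT, Lef1 and Otx2 had lower signals than untreated cells and Pou3f1 a higher one. The other 7 genes had smaller differences, and none of the 10 passed the test. Lef1 was at 6.62 and 6.76 in untreated cells, 5.88 and 6.28 with 4OHT, and 6.34 and 6.39 with Shld1. Every treated array therefore lay below both untreated arrays, and both 4OHT arrays below both Shld1 arrays. The log2 difference of Lef1 between 4OHT and untreated was -0.61 (SE 0.17, 95% interval -0.98 to -0.24), a 1.52-fold lower signal (limma, adjusted p = 0.96; unadjusted p = 0.00455).

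Otx2 was at 7.67 and 7.61 in untreated cells, 6.93 and 7.28 with 4OHT, and 7.53 and 7.52 with Shld1. The 4OHT arrays stood below all 4 others, and the Shld1 arrays just below the untreated ones. The difference between 4OHT and untreated was -0.54 (SE 0.16, 95% interval -0.89 to -0.19), a 1.45-fold lower signal (limma, adjusted p = 0.96; unadjusted p = 0.00684). Both genes were lowest on 4OHT replicate 1, the array with the narrower range. Without it the differences were -0.41 for Lef1 and -0.36 for Otx2, and with quantile normalization, which gives every array the same range, they were -0.56 and -0.48. By p, Lef1 ranked 68 and Otx2 98 among the 19938 genes.

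Pou3f1 was at 4.40 and 4.48 in untreated cells, 4.72 and 4.85 with 4OHT, and 4.67 and 4.52 with Shld1. The order of the groups was the reverse of that of Lef1, with the 4OHT arrays highest and the untreated arrays lowest. Its difference between 4OHT and untreated was 0.34 (SE 0.14, 95% interval 0.02 to 0.66), a 1.27-fold higher signal (limma, adjusted p = 0.96; unadjusted p = 0.0397). Without 4OHT replicate 1 it was 0.41.

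Fgf5 did not follow either pattern. It was at 4.27 and 4.23 in untreated cells, 4.25 and 4.27 with 4OHT, and 4.17 and 4.30 with Shld1, so the 3 groups overlapped. Its difference was 0.01 for 4OHT (95% interval -0.30 to 0.32, up to 1.25-fold higher) and -0.02 for Shld1 (-0.33 to 0.29). These intervals are for signal, per gene and unadjusted. Fgf5 lay not far above the background of 3.73, so they do not bound a difference in its RNA. The SD of Fgf5 over the 6 arrays was 0.045, at percentile 1.3 of the 12815 genes above background, whereas Lef1 (0.303) was at percentile 95.1 and Otx2 (0.276) at percentile 91.8.

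Among the other transcription factors, Sox3, a SOXB1 factor, was at 5.53 and 5.56 in untreated cells, 6.02 and 5.64 with 4OHT, and 5.56 and 5.79 with Shld1. The 4OHT mean rested largely on replicate 1: the difference from untreated was 0.28 (SE 0.17) with it and 0.10 without it. Zic2, a zinc finger factor, was at 5.59 and 5.96, 6.04 and 5.93, and 5.68 and 5.96 in the same order of groups. Its untreated arrays lay farther apart than any 2 group means, and each treated group overlapped them (0.21 for 4OHT, SE 0.17, and 0.03 without untreated replicate 1; 0.05 for Shld1, SE 0.17).

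Tcf15, a basic helix-loop-helix factor linked to priming for differentiation, was at 7.41 and 7.35 in untreated cells, 7.54 and 7.51 with 4OHT, and 7.45 and 7.39 with Shld1. The 4OHT arrays were above the others by a small margin, a difference of 0.14 from untreated (SE 0.14, 95% interval -0.17 to 0.44). Sall2, a spalt-like zinc finger factor, was at 3.62 and 3.93, 4.05 and 3.96, and 3.88 and 4.37. Its highest array was Shld1 replicate 2, and the Shld1 difference of 0.35 (SE 0.19) was 0.10 without that array. The 4OHT difference of 0.23 was 0.07 without untreated replicate 1.

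Pim2 was at 4.57 and 4.49 in untreated cells, 4.81 and 4.62 with 4OHT, and 4.55 and 4.56 with Shld1, and the 4OHT arrays lay above the other 4 (0.19 against untreated, SE 0.14). Without 4OHT replicate 1 that difference was 0.09. Cdh2 was below background on all 6 arrays, at 3.34 and 3.44, 3.33 and 3.28, and 3.48 and 3.65. Its differences of -0.08 for 4OHT and 0.18 for Shld1 (SE 0.14 each) are therefore limited by background.

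Set together, 7 of the 10 genes were higher and 3 lower with 4OHT, with a median log2 difference of 0.16, against -0.009 over all 19938 genes, of which 47.8% were higher. These shares moved with the scaling: quantile normalization gave 6 higher and 4 lower, and centring on each array's 75th percentile put 11677 of the 19938 genes higher. For 8 of them the arrays of 4OHT and untreated cells did not overlap, 5 higher (Pou3f1, Sox3, Tcf15, Sall2 and Pim2) and 3 lower (Lef1, Otx2 and Cdh2). Over all genes that was so for 37.7%, 17.3% higher and 20.4% lower. Limma called 0 of the 10 and 0 of all genes, 0% of those tested. At an unadjusted p under 0.05 stood 3 of the 10 (Lef1, Otx2 and Pou3f1) and 995 of all genes, or 4.99%. The genes were chosen with such values known, so these counts describe them and test nothing.

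**Figure D2:**
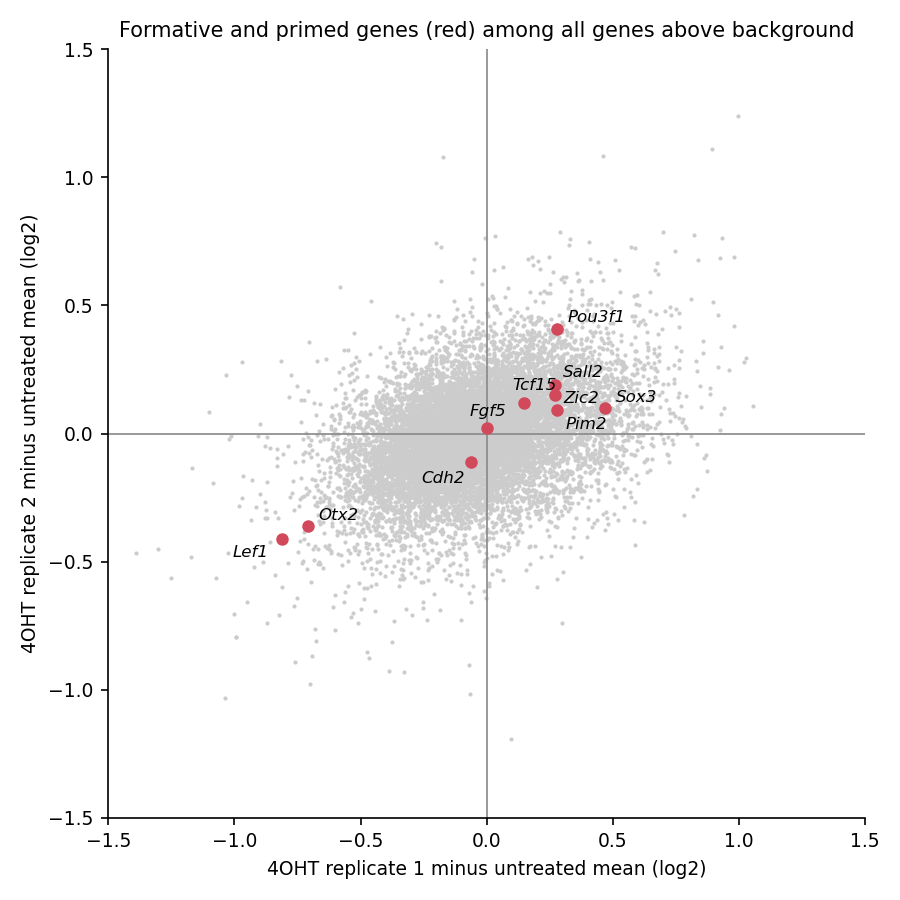
Log2 difference from the untreated mean on 4OHT replicate 1 (x axis) and replicate 2 (y axis), for 12813 of the 12815 genes above background (grey; 2 lie outside the axes) and the 10 formative and primed genes (red). Lef1 (-0.81 and -0.41) and Otx2 (-0.71 and -0.36) lie at the lower left, and Pou3f1 (0.28 and 0.41) at the upper right.

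The place of Lef1 and Otx2 at the edge of that distribution can be counted. Of the 12815 genes above background, 20 were at least as low as Lef1 on both 4OHT arrays, Lef1 included, and 32 at least as low as Otx2, Otx2 included. The untreated arrays enter both axes, so the axes share their error. As the genes were chosen with such values known, these counts too describe them and test nothing.

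With Shld1, the differences from untreated were smaller in size for 7 of the 10 genes than with 4OHT, and 0 of 10 passed. Lef1 differed by -0.33 (SE 0.17, 95% interval -0.70 to 0.04; limma, adjusted p = 0.999), and Otx2 by -0.12 (SE 0.16, 95% interval -0.47 to 0.23). Pou3f1 differed by 0.15 and Sox3 by 0.13, of which 0.08 was left for Pou3f1 without Shld1 replicate 1 and 0.02 for Sox3 without Shld1 replicate 2. The exceptions in size were Fgf5, at -0.02, and Sall2 and Cdh2, which lay near or under background and were both highest on Shld1 replicate 2. On that array the olfactory receptor genes, which mark background, had a median of 2.57, while the 5 other arrays gave 2.31 to 2.40. Of the 10, 7 were higher and 3 lower, against 48.9% higher over all genes, and the median was 0.04, against -0.004 over all genes. The groups did not overlap for 5 of 10, where 32.5% of all genes did the same. Limma called 0% of all genes, and 0 of the 10 had an unadjusted p under 0.05, against 4.34% of all.

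Between the agents, at the same dose of 1 µM, Otx2 had the smallest p of the 10 genes. Its difference, 4OHT minus Shld1, was -0.42 (SE 0.16, 95% interval -0.77 to -0.07; limma, adjusted p = 0.871; unadjusted p = 0.0244). Without 4OHT replicate 1 it was -0.24. Lef1 differed by -0.28 (95% interval -0.65 to 0.09), and without 4OHT replicate 1 by -0.08, so a difference in Lef1 between the agents was not resolved. Pou3f1 differed by 0.19 (0.11 without Shld1 replicate 2), Pim2 by 0.16 (0.07 without 4OHT replicate 1) and Tcf15 by 0.10. The groups did not overlap for 6 of the 10 genes, against 30.5% of all genes. Again 0% of all genes were called, and 1 of the 10 had an unadjusted p under 0.05, against 5.6% of all. The comparisons with untreated cells share the untreated arrays, and each agent's arrays enter 2 comparisons.

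**Figure D3:**
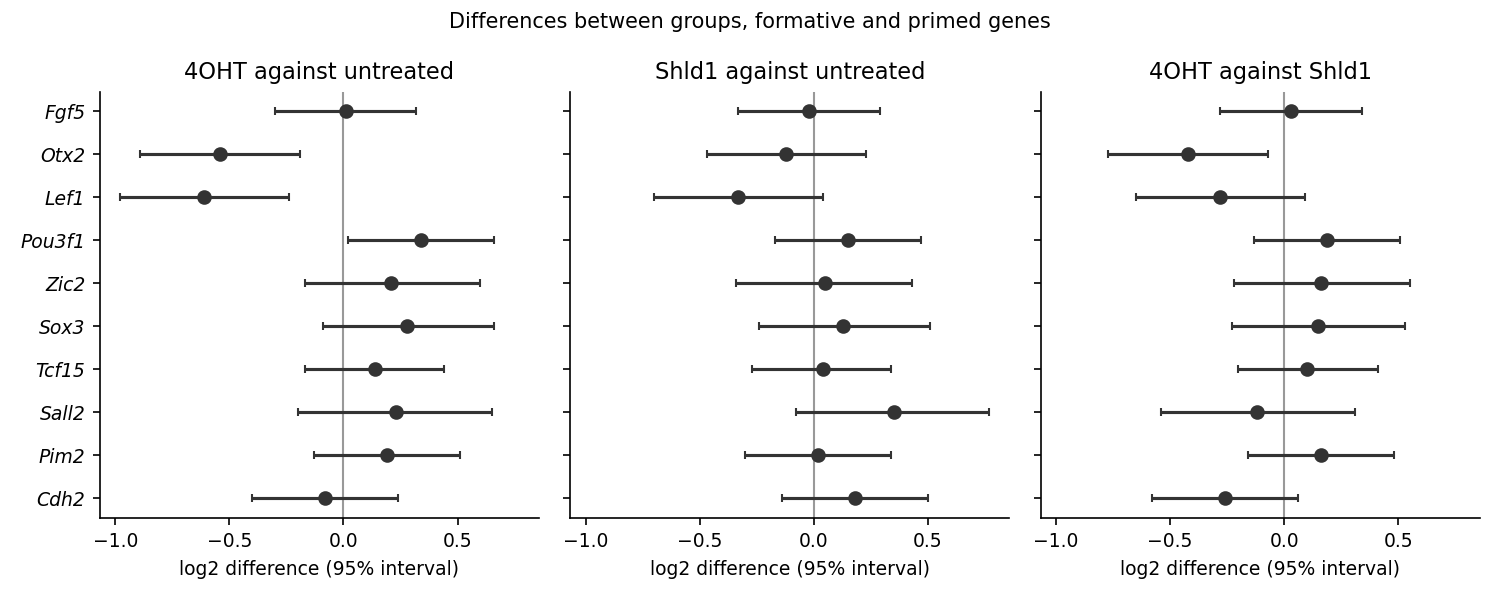
Log2 differences (points) and 95% intervals (bars) from limma for the 10 genes in the 3 comparisons, with the first-named group minus the second. The intervals of Lef1, Otx2 and Pou3f1 leave out 0 for 4OHT against untreated, none does for Shld1 against untreated, and that of Otx2 does for 4OHT against Shld1; these intervals are per gene and unadjusted.

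Other genes of the formative and primed programme showed no common direction. Of 23 measured, 11 were higher and 12 lower with 4OHT, with a median of 0.00, and 11 higher and 12 lower with Shld1, with a median of -0.02, which turned to 0.03 with quantile normalization and 0.02 with centring on the 75th percentile. Limma called 0 in either comparison. Etv4, an ETS factor downstream of FGF signalling, was at 4.95 ± 0.09 with 4OHT, 4.54 ± 0.10 in untreated cells and 4.43 ± 0.19 with Shld1 (0.42 against untreated, SE 0.15). Dnmt3a, a de novo DNA methyltransferase, was at 6.99 ± 0.20, 7.34 ± 0.08 and 7.39 ± 0.08 in that order of groups (-0.35, SE 0.15). Tead2, a transcription factor of the Hippo pathway, differed by -0.29 with 4OHT and -0.33 with Shld1 (SE 0.15 each). Foxd3, a forkhead factor of the epiblast, differed by 0.35 with Shld1 (SE 0.16).

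The naive pluripotency genes were likewise divided with 4OHT, 8 higher and 10 lower of 18, with a median of -0.02 that turned to 0.02 with quantile normalization and 0.03 with centring. Gbx2, a homeobox gene that sustains the naive state, was at 5.94 ± 0.19 with 4OHT and 5.40 ± 0.14 without (0.55, SE 0.17). Fgf4, the main autocrine FGF of these cells, was at 8.55 ± 0.12 and 8.98 ± 0.00 (-0.43, SE 0.17), and Tcl1, a cofactor of AKT, differed by 0.39 (SE 0.16). With Shld1, 4 were higher and 14 lower, with a median of -0.10, and the mean over the list was at 0.00 on replicate 1 and -0.15 on replicate 2, relative to untreated. Of the 10 core pluripotency genes, 6 were higher and 4 lower with 4OHT (median 0.02), and 1 higher and 9 lower with Shld1 (median -0.08; 3 and 7 with quantile normalization). With Shld1, the mean over the core list was at -0.03 on replicate 1 and -0.14 on replicate 2, relative to untreated. Limma called 0 genes of the naive and core lists in any comparison.

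Other genes of Wnt signalling, in which Lef1 acts, had no common direction. Of 14 Wnt and TCF genes, 9 were higher and 5 lower with 4OHT (median 0.05), and 7 and 7 with Shld1 (median 0.00); with quantile normalization the 4OHT counts were 7 and 7. Rnf43, a Wnt feedback inhibitor, differed by 0.32 with 4OHT (SE 0.15) and Notum, a secreted Wnt inhibitor, by 0.21 (SE 0.14). Rnf43 was near background, at 3.62 ± 0.12 in untreated cells and 3.94 ± 0.03 with 4OHT. Nkd1, of the same list, went the other way, at -0.19 (SE 0.17). Tcf7l1, the TCF that represses Wnt targets in stem cells, was at 6.99 and 7.00 in untreated cells, 7.02 and 7.19 with 4OHT, and 7.03 and 6.75 with Shld1. Tcf7l2, another TCF, was at 6.72 and 6.70, 6.72 and 6.87, and 6.51 and 6.41. It stood lowest on the Shld1 arrays (-0.25 against untreated, SE 0.14), where Lef1 was intermediate.

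**Figure D4:**
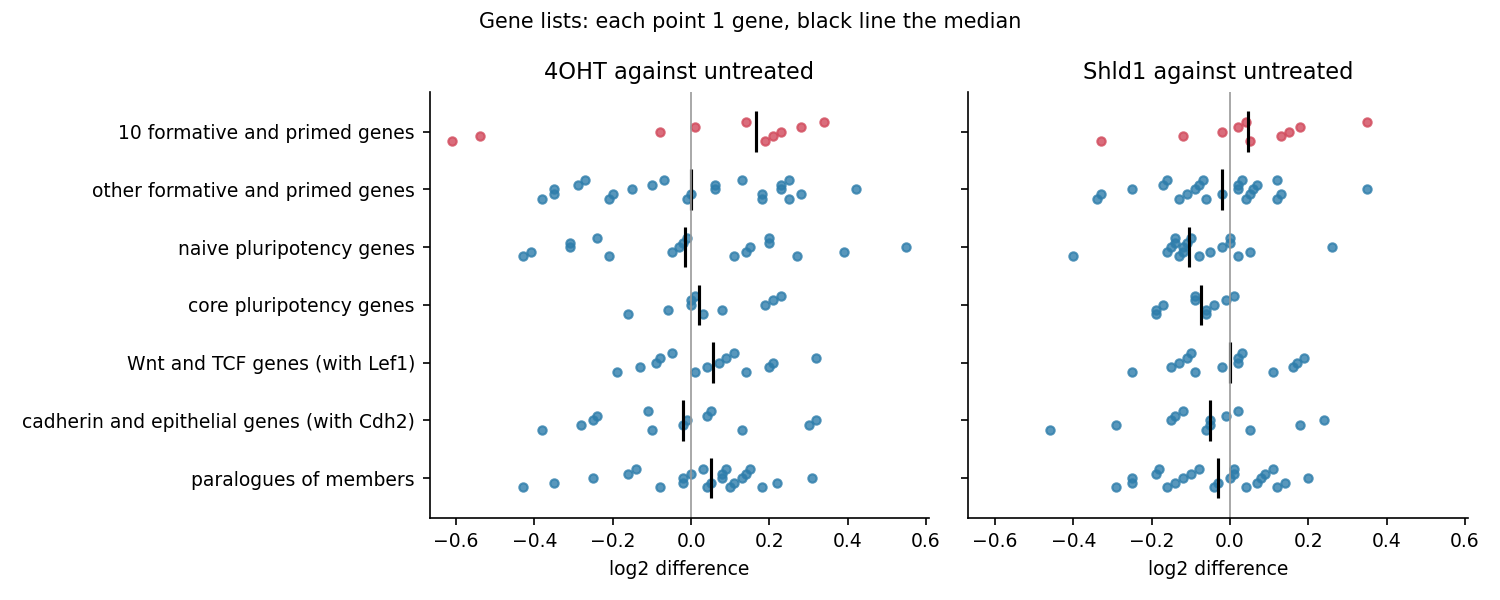
Log2 differences from untreated cells for each gene of 7 lists, with 4OHT (left) and Shld1 (right); points are genes and black lines list medians. With 4OHT, Lef1 (-0.61) and Otx2 (-0.54) are the 2 lowest points of all lists shown, and the medians of the other 6 lists lie between -0.02 and 0.05.

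Paralogues of the 10 genes were read beside them. Of 23 measured, 18 were above background, and 14 were higher and 9 lower with 4OHT (median 0.05); with Shld1, 10 were higher and 13 lower (median -0.03, turning to 0.01 with centring), and limma called 0 in each. Otx1 was at 4.00 and 3.47 in untreated cells, 4.04 and 3.58 with 4OHT, and 3.52 and 4.12 with Shld1. Its arrays overlapped where those of Otx2 did not, but in every group they lay on either side of background, which limits the comparison. Zic5, a genomic neighbour of Zic2, was at 5.94 and 6.01, 5.37 and 5.88, and 6.19 and 6.01 (-0.35 with 4OHT, SE 0.18), whereas Zic2 differed by 0.21. Pou3f2 and Pou3f4 were below background, and Pou3f3 differed by 0.10 with 4OHT (SE 0.18) against 0.34 for Pou3f1. Sox1 and Sox2 differed by -0.02 and 0.08, Sall1 and Sall4 by -0.02 and 0.00, and Pim1 and Pim3 by 0.05 and 0.03. Cdh1, E-cadherin of epithelial and naive cells, was at 8.83 and 8.77, 8.59 and 8.51, and 8.72 and 8.59 (-0.25 with 4OHT, SE 0.14), with every treated array below both untreated arrays.

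Some genes outside these lists had nearly the same profile as Lef1 or Otx2 over the 6 arrays. Likeness was the root mean square difference between profiles, each centred on its own mean. The nearest to Lef1 were Esrp1 (0.046), Ddhd2 (0.060), Zc3h6 (0.065), P4ha1 (0.076) and Sc5d (0.079), in log2 units, where the median over 12814 genes was 0.287. Esrp1, an epithelial splicing regulator, was at 5.64 and 5.70 in untreated cells, 4.95 and 5.29 with 4OHT, and 5.40 and 5.35 with Shld1. The nearest to Otx2 were Tmem18 (0.057), Qtrt2 (0.060), Gng3 (0.064), Xpa (0.070) and Hcn2 (0.071), against a median of 0.267. Gng3, a G protein γ subunit, was at 8.03 and 7.84, 7.25 and 7.49, and 7.83 and 7.70. Each of these 10 genes was lowest on 4OHT replicate 1, as Lef1 and Otx2 were. They were picked for likeness over these same 6 arrays, so this follows from the choice and adds no support.

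Several of the 10 genes are also used by other cell types, so markers of those were read on the same arrays. Mean log2 signals of the marker lists moved little. That of 10 neural progenitor genes (6 above background) was 4.38 to 4.44 in untreated cells, 4.38 to 4.58 with 4OHT and 4.38 to 4.51 with Shld1. For 11 primitive streak and mesoderm genes (6 above background) the ranges were 3.80 to 3.83, 3.80 to 3.96 and 3.75 to 3.94. For 12 endoderm genes (9 above) they were 4.72 to 4.78, 4.80 to 4.81 and 4.80 to 4.88. For 8 trophoblast genes (4 above) they were 3.85 to 3.93, 3.83 to 3.90 and 3.93 to 3.98. For 9 fibroblast genes (5 above) they were 3.67 to 3.75, 3.67 to 3.88 and 3.74 to 3.75. The neural, streak and fibroblast means were highest on 4OHT replicate 1, where Sox3, Zic2, Tcf15 and Pim2 were also highest; the part of these cell types, or of that array's narrower range, in those values was not tested.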

How the data were processed

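Total RNA from 6 samples was measured on biotin-labelled single-colour arrays. The deposited table gave a log2 signal for each of 35556 probe sets on every array; the scale was read from their range. The authors' background correction, summarization, normalization and genome build are not given in the sources used here, and centring stays unknown. Limma 3.14 is named, without its role, per the submitters' processing notes. Values were used as deposited.

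Of the probe sets, 21789 had 1 symbol, 1621 several and 12146 none in the platform annotation; only the first were named, and 21698 matched a current mouse gene by Entrez identifier. The brightest probe set per gene over the 6 arrays was kept (999 genes had several), leaving 19938 genes. If the unknown normalization compressed an array, differences of dim and bright genes are altered. Whether it did so on the arrays with the narrower range was not tested.

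Limma 3.58.1 in R 4.3.3 fitted a mean per group over all 6 arrays with empirical Bayes moderation, two-sided, with Benjamini-Hochberg adjustment over all 19938 genes and calls at adjusted p under 0.05. There were 3 residual and 6.77 prior degrees of freedom. The number of arrays limits the precision: a gene's log2 difference had a standard error of 0.16 at the median, and a 95% interval reaching 0.357 to either side. With groups this small, an exact permutation test of 2 arrays against 2 cannot go below p = 0.333 and was not used. On simulated data for 4OHT against untreated (19938 genes, 200 changed, 20 runs) 1.5-fold changes were recovered in 12.9% of cases, 2-fold changes in 83% and 3-fold changes in 99.5%. There were also 6.85 false calls per run, a single figure that was not split by size of change.

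The 10 genes and all lists were chosen with earlier results of these data known. Named were the 10 genes, their paralogues, and up to 3 genes above background per list and comparison by moderated statistic. Pou5f1, Sox2, Nanog, Klf4 and Zfp42 were also named, as were the 5 genes most like each of the 2 most variable members. Vim, Snai1 and Snora62 were named outside this rule. Alternatives were an intensity trend, array weights, a replicate block, quantile normalization, the 75th percentile of each array as its centre, removal of the dimmest 40% of genes, the average over a gene's probe sets, a fit of the compared groups alone, and fits without each array or without both arrays of narrower range. Promoter windows came from RefSeq (GRCm38.p6).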

Additional observations from a re-analysis of the deposited data

Results flagged for a closer look

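Cdh2, the N-cadherin gene, stood apart because the agents lay on opposite sides of the untreated arrays. The untreated arrays were at 3.34 and 3.44 log2 signal, both 4OHT arrays lay below them (3.33 and 3.28) and both Shld1 arrays above (3.48 and 3.65). The difference, 4OHT minus Shld1, was -0.26 (SE 0.14, 95% interval -0.58 to 0.06; limma, adjusted p = 0.894). All 6 values lie below the background of 3.73, and the lower untreated array and the higher 4OHT array differ by less than the untreated arrays do from each other. Groups of 2 arrays are too small for a search for outlying samples.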

How the results depend on the processing

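Each of the 30 differences (10 genes, 3 comparisons) was recomputed under 15 alternatives, except that Cdh2 fell among the dimmest 40% and has 14. No gene of the 10 passed under any; the lowest adjusted p (limma) was 0.236. Lef1 and Otx2 stayed lower with 4OHT in all 15, at -0.81 to -0.41 and -0.71 to -0.36, and Pou3f1 higher in all 15, at 0.28 to 0.41. Direction held throughout for 23 differences and turned for 7, all of 0.15 or less in size. For Fgf5 with 4OHT it turned with quantile normalization (-0.05), and for Fgf5 between the agents likewise (-0.03); for Fgf5 with Shld1 it turned with centring on the 75th percentile (0.02). Without both arrays of narrower range, Zic2 with Shld1 turned to -0.09 and Sall2 between the agents to 0.09. Leaving out single arrays, the ranges of those that turned were -0.01 to 0.03 (Fgf5, 4OHT), -0.08 to 0.05 (Fgf5, Shld1), -0.04 to 0.09 (Fgf5, between agents), -0.14 to 0.23 (Zic2, Shld1), -0.02 to 0.07 (Pim2, Shld1), -0.04 to 0.34 (Sox3, between agents) and -0.37 to 0.13 (Sall2, between agents); where an arm kept 1 array, it was assumed to vary like the others. The cause of these turns was not tested.

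Limma called 0 genes of all in every alternative but 1: with an intensity trend, 4OHT against Shld1 had 1 call, the small nucleolar RNA Snora62 (adjusted p = 0.0304). Genes at an unadjusted p under 0.05 ran from 518 to 1634 (4OHT against untreated), 469 to 2680 (Shld1 against untreated, the highest without Shld1 replicate 1) and 707 to 2270 (4OHT against Shld1). With the replicate number as a block, Lef1 and Otx2 differed by -0.61 and -0.54 (adjusted p = 1 each), no call changed, and 785, 748 and 968 genes had an unadjusted p under 0.05. Replicate differences of same-numbered arrays correlated at 0.06, -0.11 and -0.20 across 12815 genes. These genes are not independent, so the correlations cannot tell whether same-numbered samples were handled together. Signal near background limits Sall2 and Cdh2, and Fgf5 lay not far above it.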

Other observations

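Among the cadherin and epithelial genes, 5 were higher and 8 lower of 13 with 4OHT (median -0.02, turning to 0.02 with centring on the 75th percentile), and 4 and 9 with Shld1 (median -0.05); limma called 0 in each. Cldn7, a tight junction protein of epithelia, was at 6.63 ± 0.30 in untreated cells. It was at 6.25 ± 0.04 after 4OHT and at 6.17 ± 0.21 after Shld1. The differences were -0.38 and -0.46 (SE 0.18 each), and the arrays of either agent lay below both untreated arrays. Zeb1, a repressor of epithelial genes, was at 5.57 ± 0.09 with 4OHT against 5.27 ± 0.02 in untreated cells and 5.22 ± 0.08 with Shld1. Twist1, of the same list, went the other way, at 3.87 ± 0.23, 4.11 ± 0.05 and 4.28 ± 0.08 in that order. Vim and Snai1, which the naming rule did not pick, differed by -0.02 and 0.05 with 4OHT. The whole list ran from -0.38 to 0.32. Cdh4, R-cadherin, was at 4.56 ± 0.05 in 4OHT cells and at 4.14 ± 0.07 in Shld1 cells. The agents thus differed by 0.42 (SE 0.14, unadjusted p = 0.0125 from limma).

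Of the lineage markers, Tubb3, a neuronal tubulin, was at 8.12 ± 0.08 with 4OHT and 8.52 ± 0.19 without (-0.40, SE 0.16). Six3, of the same neural list and near background, went the other way (0.39, SE 0.18). Of the 10 neural genes measured, 6 were higher and 4 lower with 4OHT. Eomes, a factor of the streak and trophoblast, was at 4.22 ± 0.03 with Shld1 and 4.61 ± 0.22 without (-0.39, SE 0.15). Foxa2, an endoderm factor, was at 4.16 and 5.10 on the Shld1 arrays and 4.37 and 3.68 on the untreated arrays, so its replicates lay farther apart than its groups. None of these genes passed the adjustment.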
